A study of Homo sapiens with 10 samples.

Results

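RNA of 9 genes that make, carry, sense and remove retinoic acid was compared between a sorted and an unsorted population of human embryonic stem cells. The genes were chosen by symbol (CYP26A1, CYP26B1, DHRS3, ALDH1A3, CRABP1, CRABP2, RARA, RARB and RARG), and each matched 1 of the 55841 Ensembl identifiers of the count table. The line, an established one, is HES9 by the labels and WA09 by the study's text, and these names are not reconciled here. All cultures were grown in mTeSR1 medium on Matrigel, that is, without feeder cells. The general population holds all cells of the culture without sorting. The HHH population was sorted by flow cytometry as the cells with the highest EPCAM among those highest for the surface antigens GCTM-2 and CD9. Each population had 5 libraries: batch 1 holds general replicates 1 and 2 and HHH replicates 2 and 3, and batch 2 holds replicates 1 to 3 of both populations. The deposit's design text mentions protein kinase C inhibitors, but no library carries such a label, and whether any culture received one is not known here. The labels do not say that replicates were separate cultures, so p-values measure the spread between these libraries, which may be technical. As the general cells were not sorted, effects of sorting and of population cannot be told apart.

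Retinoic acid is made from vitamin A in successive oxidations, from retinol to retinal and from retinal to the acid. It binds nuclear receptors that sit on DNA with a retinoid X receptor partner, and it is a strong inducer of differentiation in embryonic stem cells, which leave the pluripotent state when exposed to it. Its level is held down by CYP26 enzymes and by DHRS3, which turns retinal back into retinol, and several of these genes are themselves induced by retinoic acid in many cell types.

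The element through which the receptors act is classically a direct repeat of a 6-base unit with 5 bases between the copies, called DR5. Promoters of the 9 genes were searched for it because the same genes are compared below. The windows were RefSeq's (GRCh38.p14), from 250 bases before to 50 bases after each annotated start, and the unit accepted was AGGTCA, its variant AGTTCA, the further variant GGGTCA or the form GGTTCA, on either strand. Of 17 windows of the 9 genes, 2 held a DR5, against 0.0883% of all 35116 windows (31 windows). They belong to CYP26A1 and RARB, and are printed with 6 bases on either side, 5′ to 3′ on the strand of the gene, with the repeat units in capitals.
CYP26A1: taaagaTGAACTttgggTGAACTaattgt
RARB: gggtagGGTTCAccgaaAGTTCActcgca
The CYP26A1 stretch is chr10:93073797-93073825 on the plus strand. Its units read as AGTTCA on the opposite strand, and 73 bases lie between the repeat and the downstream of 2 annotated starts. By GENCODE 44 the repeat lies in the 5′ UTR of 1 of 6 transcripts of the gene. The RARB stretch is chr3:25428204-25428232 on the plus strand, with 36 bases between the repeat and the start that follows it, 1 of 4 RefSeq starts of that gene. It lies in an annotated UTR of 3 of 23 transcripts. No window of the other 7 genes held a DR5, and none of the 17 held the same units spaced by 2 bases (DR2) or by 1 base (DR1), which 0.0399% and 0.131% of all windows did. The accepted units were set by hand and include those of both matches, and the 9 genes were chosen beforehand. The shares of all windows are therefore given for scale and test nothing. A match describes the letters only, and binding was not measured.

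Libraries held 47.2 to 78.5 M counts, and no pair of libraries held identical counts. Levels are given as CPM, in which counts are divided by the TMM-adjusted total of their library, so that 3 counts, the smallest total taken as detection, stood for 0.0459 to 0.0686 CPM, a floor that covers counting error only. The sorted antigens were checked against the labels. EPCAM was at 148 ± 37.2 CPM in general and 196 ± 42.0 in HHH (SD, n = 5), and rose in HHH by 0.41 on the log2 scale (SE 0.081, adjusted p = 0.00645, edgeR's quasi-likelihood test), which did not pass without a batch term, in batch 1 alone or on the deposited log2 values (adjusted p up to 0.527). CD9 was at 71.2 ± 23.2 and 84.0 ± 10.6 CPM, with a log2 fold change of 0.29 (adjusted p = 0.195, or 0.0186 when replicate numbers entered as a block). Pluripotency markers were high in both populations, and the summed level of the 9 examined (POU5F1, NANOG, SOX2 and others) was 4821 to 6158 CPM in general and 4524 to 5988 in HHH libraries. LIN28A was the largest part of this sum, at 2108 ± 278 and 1842 ± 334 CPM. Under 1.5-fold, NANOG was higher in HHH (log2 fold change 0.44, adjusted p = 0.00572). PODXL (−0.40, adjusted p = 0.0306) and SOX2 (−0.26, adjusted p = 0.0375) were lower under 1.5-fold, and the other 6 did not pass. Of these 6, TDGF1 was higher under 1.5-fold when replicate numbers entered as a block (log2 fold change 0.44, adjusted p = 0.0342, against 0.0749 without the block). The batches differed in the share of small nuclear and nucleolar RNAs, which took 2.71 to 4.97% of the counts in batch 1 and 0.418 to 0.727% in batch 2. The cause of this difference was not tested. Batch was therefore a term of the main comparison, and each batch was also tested alone.

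In HHH cells 3 of the 9 retinoic acid genes were lower at an adjusted p under 0.05 and over 1.5-fold (CYP26A1, DHRS3 and CRABP2). A further gene, RARG, was lower at that adjusted p with a smaller change, and 0 were higher. Of all 23552 genes tested, 2.34% were lower by the same call (551 genes), 3.89% were lower at the adjusted p alone (915 genes) and 0.637% were higher by the call (150 genes). CYP26B1 was counted too rarely to enter the test, so 8 of the 9 were tested. CRABP1, ALDH1A3, RARA and RARB did not pass. The median log2 fold change of the 8 tested genes was −0.47, beside 0.016 over all tested genes. The 9 genes were chosen with earlier results of these data known, so shares of all genes are given for scale and test nothing.

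**Figure D1:**
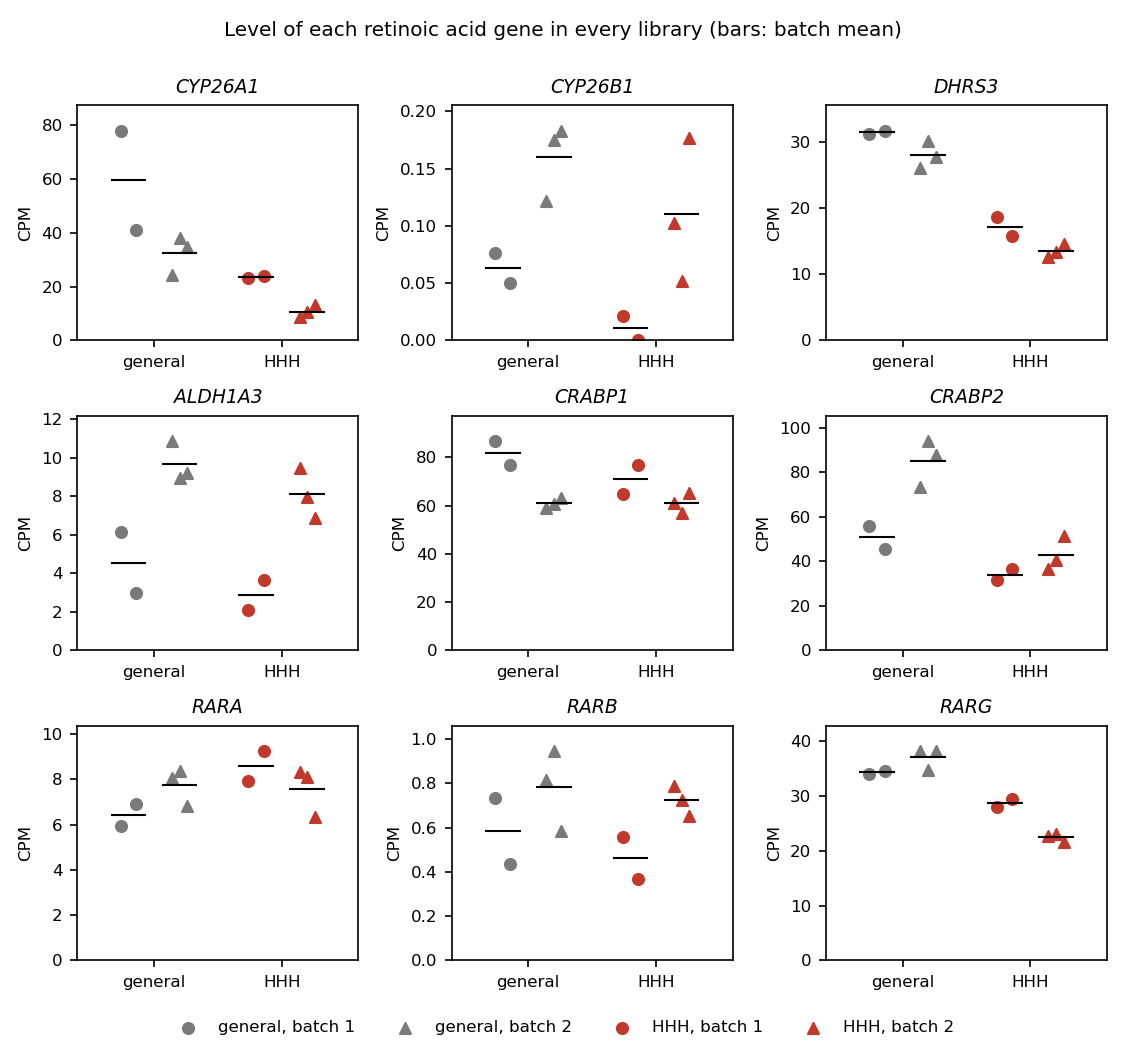
CPM (vertical axis, from 0) of each of the 9 genes in each general (grey) and HHH (red) library, with circles for batch 1, triangles for batch 2 and a bar at the mean of each batch. For CYP26A1, DHRS3, CRABP2 and RARG the HHH libraries lie below the general libraries in both batches, while for CRABP1, ALDH1A3, RARA and RARB they overlap in at least 1 batch.

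Among the genes that remove retinoic acid or its precursor, CYP26A1 had the largest log2 fold change of the 8 tested. CYP26A1 (ENSG00000095596, chr10:93073475-93077885, GRCh38) encodes the cytochrome P450 that oxidises retinoic acid to inactive products. In the general population it was at 78.0 and 41.1 CPM in batch 1 and at 24.2, 38.1 and 34.8 in batch 2. In HHH it was at 23.4 and 23.9 in batch 1 and at 8.55, 10.5 and 13.0 in batch 2. The highest HHH library thus lay just under the lowest general library although these came from different batches, and within each batch the populations were well apart. Both populations were higher in batch 1, with batch means of 59.6 and 32.3 CPM in general and 23.6 and 10.7 in HHH. The HHH level was 35.6% of the general level with batch taken into account, or −1.49 as a log2 fold change (SE 0.17, adjusted p = 0.000111). The change was −1.34 in batch 1 alone (SE 0.25, adjusted p = 0.0632) and −1.61 in batch 2 alone (SE 0.17, adjusted p = 5.33e-05). It did not pass when the batch term was left out (adjusted p = 0.110). It passed with each of the 10 libraries left out in turn, where the log2 fold change ran from −1.64 to −1.36, general batch 1 replicate 1 with its 78.0 CPM included.

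DHRS3 (ENSG00000162496, chr1:12567910-12618210), the reductase that returns retinal to retinol, was lower in HHH by a similar amount in both batches. General libraries held 31.3 and 31.8 CPM in batch 1 and 26.1, 30.2 and 27.9 in batch 2. HHH libraries held 18.7 and 15.9 CPM in batch 1 and 12.6, 13.5 and 14.6 in batch 2. All HHH libraries were below all general libraries, the closest of them being 18.7 CPM in HHH and 26.1 CPM in general. The level in HHH was 50.8% of that in general (log2 fold change −0.98, SE 0.080, adjusted p = 4.58e-06). Its decrease passed in each batch alone, with −0.88 in batch 1 (adjusted p = 0.0296) and −1.06 in batch 2, and it kept an adjusted p under 0.05 in all 25 alternative fits. In batch 1 alone only 0.282% of 23720 tested genes were called lower (67 genes), and DHRS3 was the only one of the retinoic acid genes among them.

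CYP26B1 (ENSG00000003137, chr2:72129238-72147862), a paralog of CYP26A1 with the same activity, was close to the detection limit. It had 3 to 11 counts per general library and 0 to 10 per HHH library, in all 36 against 20 counts. In CPM the general libraries were at 0.0766 and 0.0503 in batch 1 and at 0.121, 0.175 and 0.183 in batch 2. The HHH libraries were at 0.0214 and 0 in batch 1 and at 0.103, 0.0518 and 0.177 in batch 2. The populations were apart in batch 1 and overlapped in batch 2. An exact permutation test of the batch-centred means, permuting the libraries within each batch (120 arrangements, two-sided), gave p = 0.10, where the smallest possible p was 0.0167. No difference was detected with counts this low and 10 libraries.

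Of the enzymes that make retinoic acid, ALDH1A3 was the member examined (ENSG00000184254, chr15:100877714-100916626), a dehydrogenase that oxidises retinal to retinoic acid. General libraries were at 6.14 and 2.98 CPM in batch 1 and 10.9, 8.94 and 9.21 in batch 2. HHH libraries were at 2.12 and 3.64 CPM in batch 1 and 9.49, 7.98 and 6.85 in batch 2. All 5 HHH libraries lay under the mean of the general libraries of their batch, but the populations overlapped in both batches. The batches differed more than the populations, with general means of 4.56 and 9.68 CPM. The log2 fold change was −0.41 (SE 0.19, adjusted p = 0.235), with a 95% interval from −0.81 to −0.0050 that is not adjusted for the number of genes. It passed an adjusted p of 0.05 when no filter on low counts was used (0.0231), under 1.5-fold. As 32.1% of its exon bases are shared with the antisense gene ALDH1A3-AS1, and no source used here states that strand was used in counting, its values are uncertain.

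Of the intracellular carriers CRABP2 was lower in HHH and CRABP1 did not pass the test, and the difference between their changes was not tested. CRABP2 (ENSG00000143320, chr1:156699606-156705816) brings retinoic acid to its receptors in the nucleus. In general it was at 56.0 and 45.7 CPM in batch 1 and at 73.3, 94.1 and 87.8 in batch 2. In HHH it was at 31.7 and 36.4 in batch 1 and at 36.4, 40.4 and 51.3 in batch 2. Within each batch all HHH libraries were below the general ones, though the highest HHH library of batch 2 exceeded the lowest general library of batch 1. The level in HHH was 56.2% of general (log2 fold change −0.83, SE 0.12, adjusted p = 0.000588). In batch 1 alone the change was −0.59 (adjusted p = 0.141) and in batch 2 alone −1.002 (adjusted p = 0.000256). Without a batch term CRABP2 did not pass (adjusted p = 0.0908).

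CRABP1 (ENSG00000166426, chr15:78340353-78348225), the cytoplasmic carrier that has been linked to the breakdown of retinoic acid, was at 86.9 and 76.7 CPM in batch 1 and 58.9, 60.8 and 63.1 in batch 2 of the general population. HHH libraries were at 64.9 and 76.8 CPM in batch 1 and 61.0, 56.8 and 65.2 in batch 2. The populations overlapped in both batches. The log2 fold change was −0.082 (SE 0.077, adjusted p = 0.582), and its 95% interval ran from −0.25 to 0.083, so that a change of 1.5-fold in either direction lay outside it. The ratio of CRABP2 to CRABP1, each per length of exon, was 0.961 ± 0.388 in general and 0.541 ± 0.121 in HHH libraries (SD, n = 5), given as a description and not tested. In general libraries it was 0.571 and 0.528 in batch 1 and 1.10, 1.37 and 1.23 in batch 2. In HHH libraries it was 0.432 and 0.420 in batch 1 and 0.529, 0.630 and 0.697 in batch 2.

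Of the receptors, RARG passed the test, and the changes of the receptors were not tested against each other. RARG (ENSG00000172819, chr12:53210567-53232980) was at 34.0 and 34.6 CPM in batch 1 and 38.2, 34.8 and 38.3 in batch 2 in general libraries. HHH libraries were at 28.1 and 29.5 CPM in batch 1 and 22.7, 23.1 and 21.7 in batch 2. All HHH libraries lay below all general libraries. The level in HHH was 69.1% of general, a decrease of 1.45-fold (log2 fold change −0.53, SE 0.089, adjusted p = 0.00220). This missed the 1.5-fold limit, which it passed under the replicate block (log2 fold change −0.62, adjusted p = 0.00361) and in batch 2 alone (−0.73, adjusted p = 9.5e-05). It also passed that limit on the deposited log2 values (−0.67, adjusted p = 0.000760, limma), where the median of all genes was −0.13. In batch 1 alone the change was −0.26 (adjusted p = 0.409). Its interaction with batch had an adjusted p of 0.0977, so the batches were not shown to differ.

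RARA (ENSG00000131759, chr17:40309180-40357643) was at 5.93 and 6.90 CPM in batch 1 and 8.05, 8.38 and 6.83 in batch 2 in general, and at 7.90 and 9.26 in batch 1 and 8.31, 8.10 and 6.32 in batch 2 in HHH. The HHH libraries were above the general ones in batch 1 and overlapped them in batch 2. The log2 fold change was 0.15 over both batches (SE 0.12, adjusted p = 0.524, 95% interval −0.11 to 0.41), with 0.42 in batch 1 and −0.040 in batch 2. RARA shares 11.7% of its exon bases with its antisense gene RARA-AS1, which leaves its counts uncertain in the same way as those of ALDH1A3.

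RARB (ENSG00000077092, chr3:24687887-25597932), one of the genes with a DR5 in a promoter window, was barely transcribed, with 26 to 54 counts per general and 16 to 46 per HHH library. Its general libraries were at 0.735 and 0.436 CPM in batch 1 and 0.815, 0.947 and 0.583 in batch 2, and its HHH libraries at 0.557 and 0.366 in batch 1 and 0.789, 0.726 and 0.654 in batch 2. The populations overlapped in both batches. The log2 fold change was −0.19 (SE 0.21, adjusted p = 0.647), with a 95% interval from −0.65 to 0.26 that still holds a decrease of 1.5-fold.

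**Figure D2:**
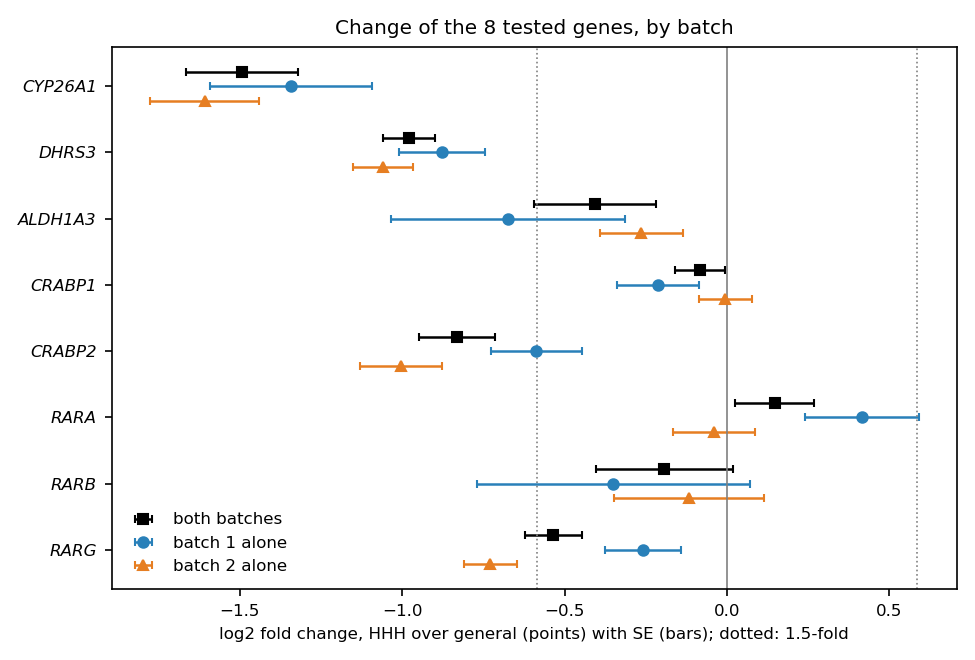
Log2 fold change of HHH over general (horizontal axis) with its SE for the 8 tested genes, from both batches with batch as a term (black squares), batch 1 alone (blue circles) and batch 2 alone (orange triangles), with dotted lines at 1.5-fold. CYP26A1, DHRS3, CRABP2 and RARG lie below 0 in each fit, RARG and CRABP2 with a smaller estimate in batch 1 than in batch 2, and RARA lies on either side of 0 by batch.

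Replication was also read from the libraries without a model. In both batches all HHH libraries lay below all general libraries for 4 of the 9 genes (CYP26A1, DHRS3, CRABP2 and RARG), beside 5.43% of the tested genes (1278). Over both batches together this held for 3 of the 9 (CYP26A1, DHRS3 and RARG), beside 2.00% (471 genes). These shares too are for scale only, as the 9 genes were chosen with earlier results known. In batch 2 alone 3.93% of 24025 tested genes were called lower, and the retinoic acid genes among them were CYP26A1, DHRS3, CRABP2 and RARG. The change differed between the batches for 0 of the 8 tested genes by the interaction test of edgeR, which called 0.777% of all genes (183), and the lowest adjusted p among the 8 was the 0.0977 of RARG. These data are of bulk RNA, in which fewer cells expressing a gene and less RNA per cell cannot be told apart.

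Levels of different genes were set side by side per length, as CPM per kb of exon. In general libraries the order was CRABP1 (72.2 ± 12.6), CRABP2 (66.0 ± 19.0), CYP26A1 (14.6 ± 6.91), DHRS3 (8.38 ± 0.682), RARG (7.02 ± 0.408), RARA (1.52 ± 0.210), ALDH1A3 (1.43 ± 0.583), RARB (0.0745 ± 0.0211) and CYP26B1 (0.0251 ± 0.0121 CPM per kb, SD, n = 5). CRABP1 exceeded CRABP2 in 2 of the 5 general libraries, those of batch 1, at 90.7 and 80.0 against 51.8 and 42.2 CPM per kb. In batch 2 CRABP2 was above CRABP1 throughout, at 67.7, 87.0 and 81.1 against 61.4, 63.4 and 65.8. The order of these 2 genes in general libraries thus turned with batch. RARA exceeded ALDH1A3 in 3 of the 5 general libraries, with overlapping ranges. The ranges of CYP26A1 and DHRS3, and of DHRS3 and RARG, also overlapped, although the higher gene of the pair was above the lower in 5 and in 4 of the 5 libraries. The carriers were thus the most abundant of these mRNAs, and CYP26A1, DHRS3 and RARG came next.

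In HHH libraries CRABP1 stayed at the top with 67.7 ± 7.79 CPM per kb and was above CRABP2, at 36.2 ± 6.86, in 5 of 5 libraries without overlap of the ranges. CYP26A1 (5.35 ± 2.45), RARG (4.88 ± 0.688) and DHRS3 (4.28 ± 0.673) lay close together with overlapping ranges, and CYP26A1 was above RARG in 3 of 5 libraries. RARA (1.68 ± 0.224) and ALDH1A3 (1.13 ± 0.574) overlapped as in general, and RARB (0.0655 ± 0.0175) and CYP26B1 (0.0146 ± 0.0146) were again the lowest. The summed level of the 3 receptors was 8.61 ± 0.518 CPM per kb in general and 6.63 ± 0.841 in HHH. RARG made up 78.4 to 83.3% of this sum in general libraries and 70.7 to 76.0% in HHH libraries, ranges that do not overlap. These sums and shares are descriptions with no test of their own.

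**Figure D3:**
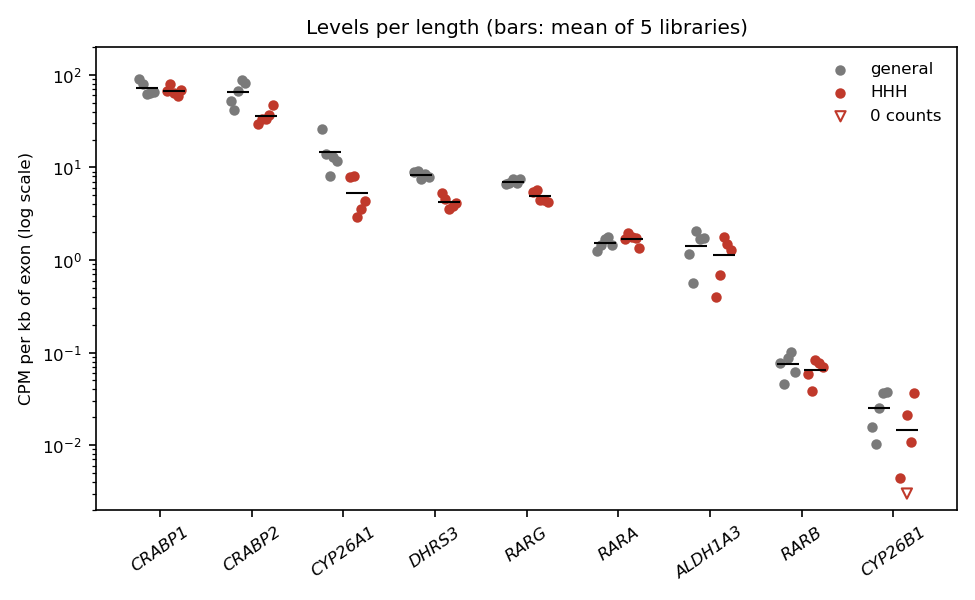
CPM per kb of exon on a log axis for the 9 genes, ordered by their mean in general libraries, with general libraries in grey, HHH libraries in red, bars at the mean of 5 libraries and an open triangle for 1 HHH library with 0 counts of CYP26B1. The carriers stand at the top, RARB and CYP26B1 lie more than 10 times below all others in the means, and the separation of CRABP1 from CRABP2 is seen in HHH and not in general libraries.

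The rest of the pathway was examined through a list of other genes for uptake and storage of retinol, its oxidation, partner receptors, coregulators and target genes. Of 31 such genes with an identifier, 20 were tested, 2 were lower in HHH by the call (ALDH1A2 and MEIS2), 1 was lower under 1.5-fold (NCOA1) and 0 were higher. The median log2 fold change of the 20 was 0.035. A level under 1 CPM in both populations was found for 14 of the 31, among them all 7 target genes, MEIS2 and TGM2 included.

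ALDH1A2, the retinal dehydrogenase that makes most retinoic acid in the early embryo, was at 0.545 ± 0.240 CPM in general and 0.194 ± 0.0794 in HHH (SD, n = 5). Its log2 fold change was −1.49 (SE 0.34, adjusted p = 0.0167), and all HHH libraries were below the general ones in both batches. It rests on 21 to 61 counts per general and 6 to 16 per HHH library, and its adjusted p rose to between 0.0524 and 0.0542 without general batch 1 replicate 1, HHH batch 2 replicate 1, HHH batch 2 replicate 2 or general batch 2 replicate 3. MEIS2, a homeobox gene induced by retinoic acid in many tissues, was at 0.325 ± 0.160 and 0.101 ± 0.0643 CPM, a difference of −1.66 on the log2 scale (SE 0.43, adjusted p = 0.0362). It had 12 to 31 and 1 to 11 counts. Its call was lost with the replicate block (adjusted p = 0.0595) and without 7 of the 10 libraries left out singly (general batch 1 replicates 1 and 2, HHH batch 1 replicate 2, HHH batch 2 replicates 1 and 3, and general batch 2 replicates 1 and 2), where it reached 0.114.

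NCOA1, a coactivator of nuclear receptors, was at 25.3 ± 4.58 CPM in general and 20.6 ± 4.05 in HHH (log2 fold change −0.29, SE 0.078, adjusted p = 0.0394), and lost this with 8 of the 10 libraries left out singly, up to 0.135, all but HHH batch 1 replicate 3 and HHH batch 2 replicate 1. The gene most abundant per length in general libraries in each step did not pass over both batches. In batch 2 alone some passed under 1.5-fold. These were RDH11 (log2 fold change 0.43, adjusted p = 0.0110), LRAT (0.38, adjusted p = 0.0182) and RXRA (−0.40, adjusted p = 0.0227). None of these passed in batch 1 alone, where their signs were opposite. RDH11, a reductase and dehydrogenase of retinol and retinal, was at 162 ± 25.3 and 184 ± 19.97 CPM (adjusted p = 0.301). LRAT, which stores retinol as esters, was at 120.9 ± 111 and 102.8 ± 57.3 CPM (log2 fold change 0.028, adjusted p = 0.951), and its sign turned under several alternatives and between batch 1 (−0.50) and batch 2 (0.38). RXRA, a retinoid X receptor, was at 39.1 ± 4.63 and 35.4 ± 5.58 CPM (adjusted p = 0.487), with 0.22 in batch 1 and −0.40 in batch 2 on the log2 scale. The corepressor NCOR1 was at 116.9 ± 31.7 and 103.8 ± 28.7 CPM (adjusted p = 0.346). FABP5, a fatty acid carrier that also binds retinoic acid, was at 3.10 ± 0.445 and 3.98 ± 1.21 CPM (adjusted p = 0.218), and ALDH1A1 was at 1.71 ± 0.337 and 1.95 ± 0.305 CPM (adjusted p = 0.506). TGM2, the highest of the target genes per length, was at 0.933 ± 0.317 and 0.789 ± 0.171 CPM (adjusted p = 0.624).

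**Figure D4:**
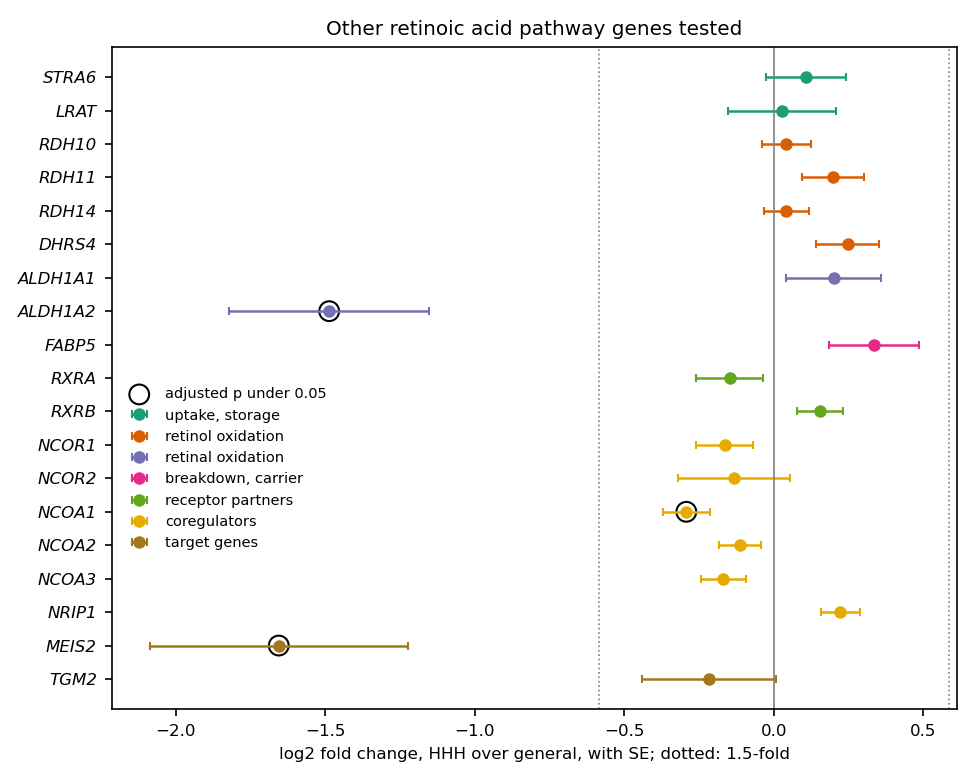
Log2 fold change of HHH over general (horizontal axis) with its SE for 19 of the 20 tested other pathway genes, coloured by step, with open rings at an adjusted p under 0.05 and dotted lines at 1.5-fold. ALDH1A2 and MEIS2 stand apart at −1.49 and −1.66, and the other 17 plotted lie between −0.29 and 0.33.

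Markers of other cell types were measured beside these changes. Of 10 neural genes 5 were tested and 2 were lower in HHH (SOX1 with a log2 fold change of −1.39 and adjusted p = 0.0391, and HESX1 with −1.45 and adjusted p = 0.000258), and 8 of the 10 were under 1 CPM in both populations. SOX1 did not pass with 8 of the 10 libraries left out singly (adjusted p up to 0.123), all but general batch 1 replicate 2 and HHH batch 1 replicate 3. SIX6 of the same list was at 0.338 ± 0.143 CPM in general and 0.7103 ± 0.363 in HHH (log2 fold change 1.05, adjusted p = 0.0662, and 0.00923 in batch 2 alone). SIX3 was not tested over both batches, at 0.515 ± 0.262 and 0.0209 ± 0.0310 CPM, and was lower in batch 2 alone (adjusted p = 0.000289). The summed neural level was 204 to 274 CPM in general and 135 to 249 in HHH libraries, most of it from NES at 222 ± 27.5 and 192 ± 45.9 CPM. The 5 mesoderm and 5 endoderm markers were all under 1 CPM in both populations, with 1 of each list tested over both batches and 0 called. TBXT, among those not tested there, was at 0.350 ± 0.187 CPM in general and 0.102 ± 0.0455 in HHH, with all HHH libraries below the general ones in both batches, and was lower in batch 2 alone (log2 fold change −1.84, adjusted p = 0.00269). MIXL1 went the other way, at 0.397 ± 0.0982 and 0.494 ± 0.0855 CPM (adjusted p = 0.363), with all HHH libraries above the general ones in both batches. Means were higher in HHH for EOMES (0.0968 and 0.146 CPM) and lower for MESP1 (0.139 and 0.0930) and HAND1 (0.0134 and 0.00346). In the endoderm list FOXA2 was at 0.220 ± 0.385 and 0.657 ± 0.800 CPM, above general throughout batch 1 only, and GATA6 was lower (0.0166 and 0). Of 6 amnion and surface ectoderm markers 1 was lower (KRT7), and GABRP was higher under 1.5-fold, with summed levels of 8.47 to 13.8 and 7.89 to 11.3 CPM. VTCN1 of that list did not pass (adjusted p = 0.0663) but did under the replicate block (0.0385) and in batch 2 alone (0.0166). Of 7 fibroblast markers 2 were lower (COL1A1 and ACTA2), with sums of 131 to 150.5 and 86.1 to 137 CPM. PDGFRB of that list did not pass, at 11.8 ± 2.14 CPM in general and 12.8 ± 4.04 in HHH (adjusted p = 0.751). COL3A1, LUM and DCN were not tested. Their means were lower in HHH for COL3A1 (0.0485 and 0.0254 CPM) and higher for LUM (0.00641 and 0.0240) and DCN (0 and 0.00457). Under the replicate block ACTA2 did not pass (adjusted p = 0.0874), COL1A1 did (0.0121), and COL1A2 passed under 1.5-fold (0.0281, against 0.106 without the block). COL1A1 changed by −0.34 on the log2 scale in batch 1 alone (adjusted p = 0.428) and by −1.35 in batch 2 alone (adjusted p = 7.01e-06). This difference between the batches passed the interaction test of edgeR (adjusted p = 0.0315). SIX6, SIX3, TBXT, KRT7, GABRP, VTCN1, COL1A1, ACTA2, COL1A2 and NES were named after their values were seen. The same holds for MIXL1, EOMES, MESP1, HAND1, FOXA2, GATA6, PDGFRB, COL3A1, LUM and DCN, and for the pluripotency markers given with values. No marker list held a gene at 0 in all 10 libraries. The part of these cells in the lower levels of CYP26A1, DHRS3, CRABP2 and RARG was not tested.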

How the data were processed

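RNA sequencing libraries (total RNA, TruSeq) of 5 general and 5 HHH samples were analysed. The authors deposited whole counts per Ensembl gene without normalization, and a table of scores, which by its name are TMM-scaled RPKM on a log2 scale. The deposited log2 scores had a batch term subtracted, so they served only as an alternative. The submitters' processing notes name CASAVA 1.8.2, GRCh37, R 3.2.2 and limma 3.26.9. The aligner, counter and annotation are not given in the sources used here. Identifiers were matched to GENCODE 44 (GRCh38), whose coordinates are printed 1-based and whose exon lengths were used (88.5% matched, and the rest took 7.44 to 20.3% of the counts of a library and stayed in it). Some genes of the pathway list are not reported here.

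Counts were filtered by filterByExpr (minimum count 10), scaled by TMM (factors 0.832 to 1.18) and tested with edgeR 4.0.16 (quasi-likelihood F test, R 4.3.3), two-sided, with batch as a term, in all 10 libraries, with Benjamini-Hochberg adjustment over 23552 genes. A call needed an adjusted p under 0.05 and over 1.5-fold. The SE was the log2 fold change divided by the square root of F. At these depths 1 count was 0.0153 to 0.0229 CPM. Alternatives were other scalings and filters, DESeq2 1.42.0, limma 3.58.1, other designs and thresholds, removal of a trend with GC content, single batches, and leaving out 1 library at a time. The scripts were tested on simulated data. The 9 genes, the lists and the tests were chosen with earlier results of these data known. Named were all 9 genes, EPCAM, CD9, and neural markers at an adjusted p under 0.05. Other pathway genes were named at an adjusted p under 0.05 or with the highest level per length of their step in general libraries.

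Within a batch, 4 pairs of general and HHH libraries carry the same replicate number. Deviations from the population's mean in that batch correlated between the members of a pair at 0.113 in batch 1 and at 0.239, 0.143 and 0.113 in batch 2. In batch 1 general replicate 1 and HHH replicate 3, which differ in number, gave the same 0.113 by construction. Batch 1 therefore cannot show pairing by number. In batch 2 libraries of different number correlated at −0.126 to −0.00512, values that the centring ties to those of the pairs. Pairing was thus not established, and the main comparison leaves it out. The replicate block served as an alternative, and its values are given where they change a call.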

Additional observations from a re-analysis of the deposited data

How the results depend on the processing

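The call of CYP26A1, DHRS3 and CRABP2 stood in each of the 10 fits that left out a library (3 genes in each). The count of retinoic acid genes called fell to 1 without a batch term and in batch 1 alone, where DHRS3 passed, and to 1 with a limit of 2-fold, which CYP26A1 passed. With RARG added it rose to 4 in batch 2 alone, with the replicate block in either form, on the deposited log2 values and with no fold limit. Over all genes the 701 calls became 1114 with no filter, 151 without a batch term, 136 in batch 1 alone, 1178 in batch 2 alone, 1373 with no fold limit, 265 over 2-fold, and 523 to 963 with a library left out. The 2 calls among other pathway genes became 0 with a filter of 1 CPM (neither gene passed it), without a batch term and in batch 1 alone, 1 on the deposited log2 values and 1 with the replicate block in either form, and 0 to 2 with a library left out. The 183 interactions of batch and population became 17 after removal of a GC trend and 25 to 114 with a library of batch 2 left out, and 0 of the retinoic acid genes passed in any of these. The cause of these shifts was not tested. The replicate block changed the calls given for RARG, MEIS2, CD9, TDGF1, ACTA2, VTCN1 and COL1A2. It also changed that of SOX2 (adjusted p = 0.0375 under 1.5-fold, and 0.0773 with the block), and no other call among the named genes. The median of all genes moved to −0.13 on the deposited log2 values, so changes there are relative to it.

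Some directions turned. RARA was at −0.040 in batch 2 alone. In batch 1 alone the log2 fold change was −0.16 for RDH11, −0.13 for ALDH1A1, 0.22 for RXRA, 0.34 for TGM2, −0.10 for CD9 and −0.50 for LRAT. LRAT was also at −0.082 on the deposited log2 values, −0.23 without a batch term, −0.013 after removal of a GC trend, and from −0.081 to 0.27 with a library left out. With the longest transcript as length, levels rose but in general libraries kept their order (CYP26A1 19.3, DHRS3 13.4, RARG 12.3 CPM per kb), while in HHH RARG (8.57) came above CYP26A1 (7.06) and DHRS3 (6.83). Depth limits CYP26B1 and RARB, and the small counts of ALDH1A2 and MEIS2. RARB, ALDH1A2, MEIS2 and TGM2 gave no value with the filter of 1 CPM.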
